A study of Mus musculus with 74 samples.

Results

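Knockdown of Rad21 in the mouse blood progenitor line HPC-7 was read by RNA-seq in 6 libraries, chosen by their labels from the 15 RNA-seq libraries of a series of 74 samples. HPC-7 cells were kept as progenitors (HPC) with stem cell factor. The 3 shRad21 libraries came from cells with an inducible short hairpin RNA against Rad21, and the 3 Luc libraries from cells with an inducible hairpin against luciferase, the control. Doxycycline was given for 72 h in both groups, so the drug and the hairpin system are common to them. The other RNA-seq libraries were HPC cells with hairpins against Stag2 (3) or Smc1a (2) and erythroid-induced (Ery) cells with the Stag2 or the luciferase hairpin (2 each). Ery cells had the same 72 h of doxycycline and then 48 h with erythropoietin (EPO) and less stem cell factor. The titles of all HPC libraries, but of no Ery library, have "inhibitor" in brackets, without saying which. How many hairpin sequences, clones or cultures stand behind the numbered libraries is not labelled either. The p-values therefore set group differences against the scatter between numbered libraries, taken over all 15 RNA-seq libraries unless stated. That scatter may be only technical.

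Cohesin is a ring of Smc1a, Smc3 and Rad21 with a Stag subunit, and it holds sister chromatids together and forms chromatin loops. Rad21 is the subunit that closes the ring between the Smc heads. Erythropoietin drives progenitors towards red cells. Cohesin genes, Rad21 and Stag2 among them, are mutated in human myeloid malignancies.

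The counts are given per Ensembl transcript identifier, and none of these identifiers is paired with a gene symbol in the files or the reference tables used here. The level of Rad21 itself, which would check the labels, was therefore not analysed here, nor were markers of progenitor or other blood cell types. Transcripts are named by identifier, and only the pair that rose most and the pair that fell most by the selection rule. No gene role is given to them. Counts per transcript do not allow for transcript length, so levels in CPM, which are counts scaled to sequencing depth, are compared between libraries and not between transcripts.

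Among transcripts that passed the selection rule, the one with the largest fall was close to 0 in shRad21 progenitors. ENSMUST00000023934.6 had 7, 2 and 4 reads in shRad21 libraries 1, 2 and 3, against 143, 121 and 211 reads in Luc libraries 1, 2 and 3. As levels these were 0.261, 0.0557 and 0.183 CPM with shRad21 and 6.31, 5.26 and 7.06 CPM with Luc. Every shRad21 library lay below every Luc library. Named transcripts were chosen to pass in all libraries and in libraries 1 and 2 and to keep their sign in number 3, so that agreement is no separate result for any of them. The mean was 0.167 ± 0.104 CPM with shRad21 and 6.21 ± 0.905 CPM with Luc (SD, n = 3 each). The log2 fold change was -5.30 (SE 0.303, adjusted p = 3.23e-09 by edgeR's quasi-likelihood test with Benjamini-Hochberg adjustment over all transcripts tested). With libraries 1 and 2 alone it was -5.27 (SE 0.366, adjusted p = 4.82e-11 by the same test).

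The same transcript was abundant after EPO. It stood at 222.1 and 222.5 CPM in the Ery shStag2 libraries, against 1522 and 1570 CPM in the Ery Luc libraries, a log2 difference of -2.80 (SE 0.137, edgeR adjusted p = 1.17e-09). Ery cells with the Rad21 hairpin were not analysed here. In progenitors it was also low with the other cohesin hairpins, at 0.228, 0.375 and 0 CPM with shStag2 and at 0.114 and 0.043 CPM with shSmc1a. Its shRad21 level was not shown to differ from either of these. The log2 difference was -0.56 against shStag2 (SE 0.608, edgeR adjusted p = 0.859) and 0.89 against shSmc1a (SE 0.926, edgeR adjusted p = 0.678).

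The second transcript that fell was scarcer. ENSMUST00000024988.13 had 0, 3 and 1 reads in shRad21 libraries 1, 2 and 3, against 29, 28 and 23 reads in Luc libraries 1, 2 and 3. Its mean level was 0.0431 ± 0.0418 CPM with shRad21 and 1.09 ± 0.278 CPM with Luc (SD, n = 3 each), and the groups did not overlap. The log2 fold change was -4.39 (SE 0.555, edgeR adjusted p = 4.63e-05), and -4.58 (SE 0.648, edgeR adjusted p = 1.39e-05) in libraries 1 and 2. With so few reads under shRad21, the size of this fold change depends on the prior count of the fit. The level was 0.2375 ± 0.12 CPM with shStag2 (SD, n = 3) and 0.0761 and 0.043 CPM with shSmc1a. In Ery cells it was 0.656 and 0.594 CPM with shStag2 and 1.185 and 1.205 CPM with Luc.

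The named pair that rose had to reach a mean of 1 CPM in either group and did so only with shRad21, so low Luc levels follow from the choice. ENSMUST00000203781.1 had 26, 45 and 18 reads in shRad21 libraries 1, 2 and 3, against 2, 2 and 1 reads in Luc libraries 1, 2 and 3. The mean was 1.015 ± 0.218 CPM with shRad21 and 0.0695 ± 0.0312 CPM with Luc (SD, n = 3 each). Every shRad21 library was above every Luc library. The log2 fold change was 3.87 (SE 0.56, edgeR adjusted p = 0.000209), and 3.62 (SE 0.587, edgeR adjusted p = 9.04e-05) in libraries 1 and 2. It was high with shStag2 too, at 0.75, 1.29 and 0.646 CPM, and lower with shSmc1a, at 0.266 and 0.301 CPM. The difference of shRad21 from shSmc1a did not pass, with a log2 value of 1.85 (SE 0.496, edgeR adjusted p = 0.053).

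ENSMUST00000065587.4 was higher in each shRad21 library but by different amounts. It had 17, 37 and 58 reads in shRad21 libraries 1, 2 and 3, against 3, 2 and 5 reads in Luc libraries 1, 2 and 3. The levels were 0.634, 1.03 and 2.66 CPM with shRad21 and 0.132, 0.0869 and 0.167 CPM with Luc. Number 3 was the highest library within shRad21 and within Luc. The log2 fold change was 3.36 (SE 0.698, edgeR adjusted p = 0.00521), and 2.91 (SE 0.606, edgeR adjusted p = 0.00154) in libraries 1 and 2. With the other hairpins in HPC cells it was at 0.196, 0.321 and 1.163 CPM in shStag2 1, 2 and 3. With shSmc1a it was at 0.609 and 0.689 CPM. Number 3 was thus the highest library within shStag2 too. Its change over Luc did not pass with shStag2 (log2 value 1.945, edgeR adjusted p = 0.259) or shSmc1a (2.258, edgeR adjusted p = 0.157). In Ery cells this transcript was at 0.041 and 0.105 CPM with shStag2 and at 0.0677 and 0 CPM with Luc.

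**Figure D1:**
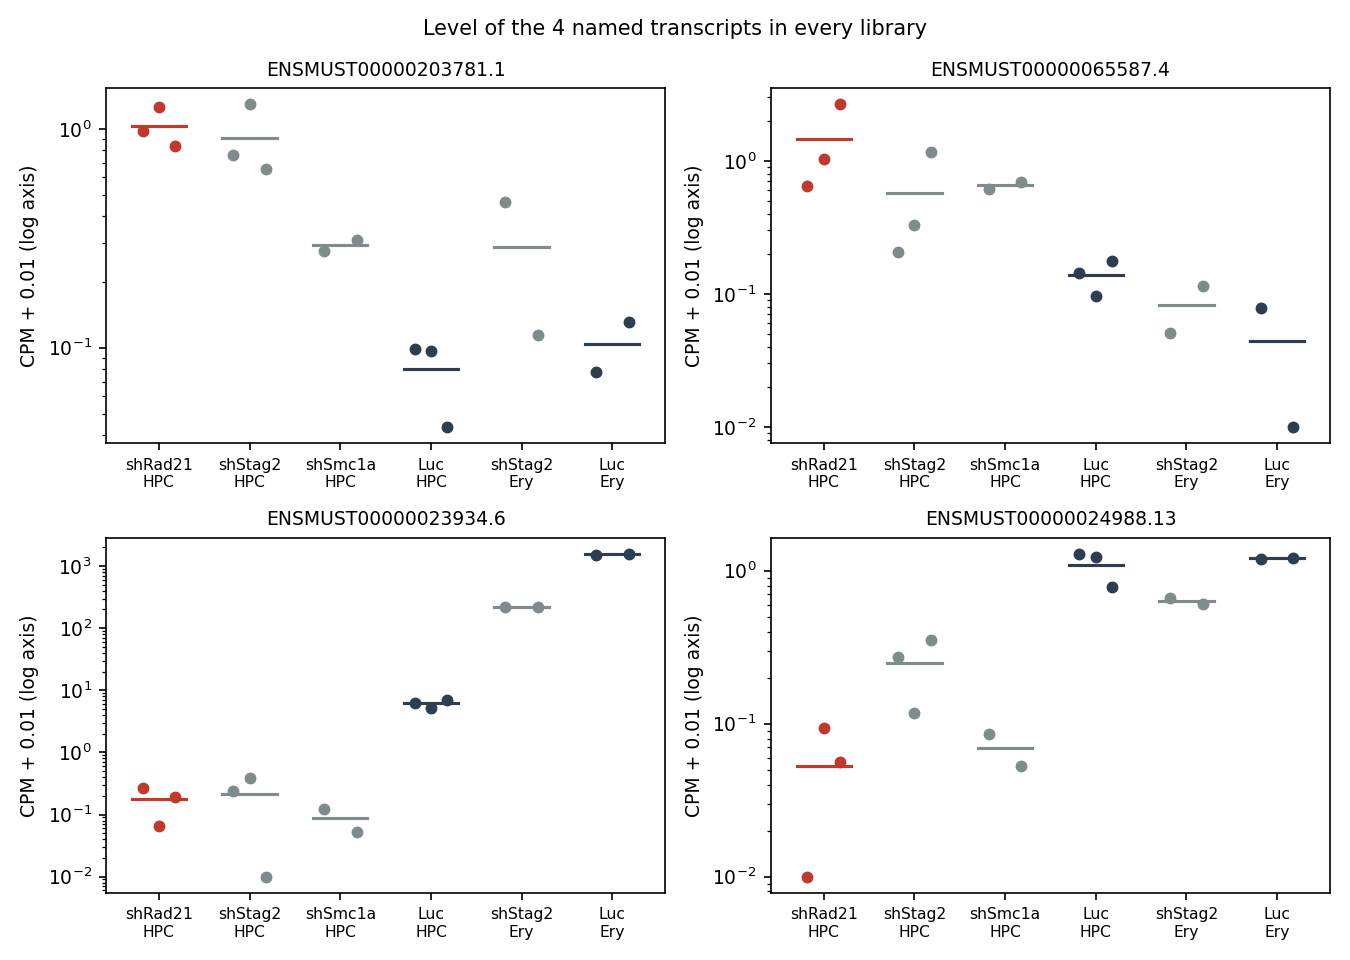
Level of the 4 named transcripts in each library, as CPM + 0.01 on a log axis; points are libraries and lines group means. ENSMUST00000023934.6 lies between 0.0557 and 0.261 CPM in shRad21 HPC cells and between 5.26 and 7.06 CPM in Luc HPC cells, and reaches 1522 and 1570 CPM in Ery Luc cells.

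Across the transcriptome, 706 transcripts rose and 713 fell with Rad21 knockdown. These 1419 transcripts are 7.85% of the 18065 tested, 3.91% higher and 3.95% lower (edgeR's quasi-likelihood test, adjusted p under 0.05). Most changes were small. The median change of the transcripts that rose was 1.44-fold, and 394 of them rose by less than 1.5-fold. Those that fell had a median log2 fold change of -0.388, which is 1.31-fold lower, and 471 of them fell by less than 1.5-fold. A change of at least 2-fold was seen for 134 transcripts that rose and 153 that fell, together 1.59% of those tested. A change of at least 4-fold was reached by 31 that rose and 54 that fell. The levels in shRad21 and Luc libraries did not overlap for 688 of those that rose and 689 of those that fell. Over all transcripts tested this was so for 22.7%. The calls were made from the same libraries, so this separation is no separate result.

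The number of changed transcripts varied with the libraries in the fit. It was 861 without shRad21 2, 868 without Luc 1, 631 in a fit of the 6 libraries alone and 2727 with the library set (number 3 and shSmc1a, or not) as a term.

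No transcript met a strict rule for being switched on or off, which any read in the other group breaks. No transcript had at least 5 reads in every shRad21 library and 0 in every Luc library, and none had the reverse. Among transcripts that passed the selection rule for naming, 581 rose and 530 fell. The 12 with the largest rises had log2 fold changes of 2.26 to 3.87, and their highest mean level was 58.4 CPM with shRad21. The 12 with the largest falls had log2 fold changes of -5.30 to -2.56, and their highest mean level was 51.3 CPM with shRad21 and 314 CPM with Luc.

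**Figure D2:**
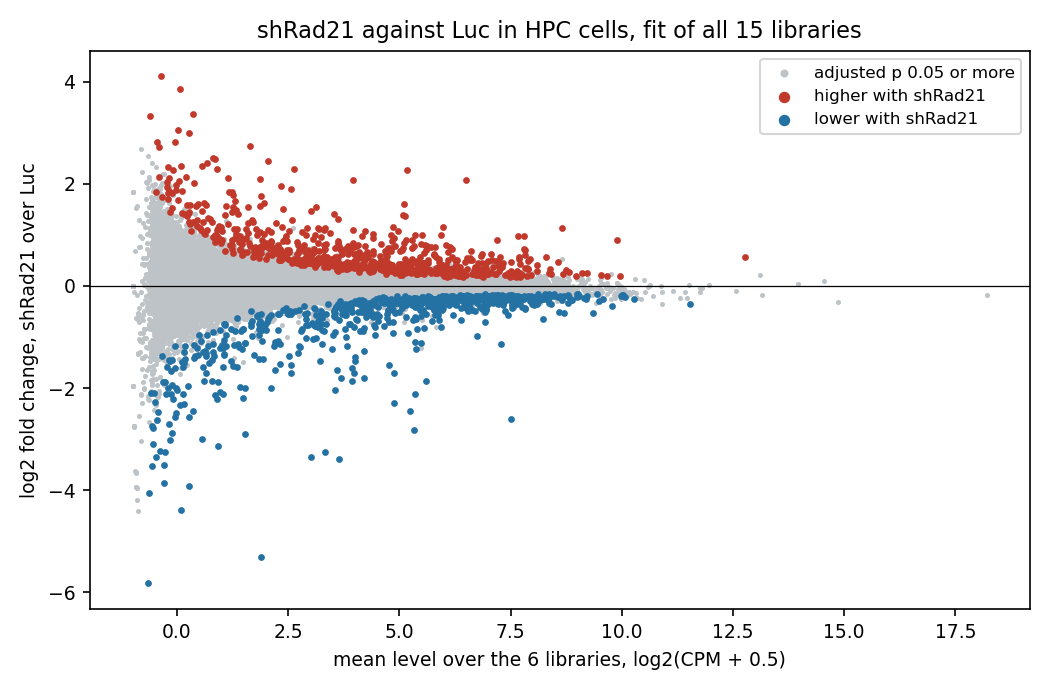
Log2 fold change of shRad21 over Luc for each of the 18065 tested transcripts against its mean level over the 6 libraries, as log2(CPM + 0.5). The 706 transcripts called higher and the 713 called lower lie on both sides of 0, and changes of at least 2-fold are mostly at low levels.

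The share of transcripts called differed with their level. Of transcripts under 1 CPM 2.04% were called, of those at 1 to 10 CPM 5.74%, of those at 10 to 100 CPM 13.9% and of those at 100 CPM or more 19.3%. The median standard error of the log2 fold change was 0.438 in the lowest class and 0.06 in the highest. The size of called changes went the other way, with a median absolute log2 fold change of 1.95 under 1 CPM and 0.255 at 100 CPM or more. Among the most abundant transcripts more fell than rose, 171 against 95 of 1377, and at 1 to 10 CPM more rose than fell, 218 against 139 of 6223. Libraries 1 and 2 alone had 253 falling and 165 rising in the most abundant class. A fit of the 6 libraries alone turned this balance, with 39 falling and 53 rising there. With RLE scaling it was 194 falling and 89 rising. The median log2 fold change of all transcripts, called or not, was 0.0677, 0.0342, -0.026 and -0.0444 from the lowest class to the highest. The part of this shift in the balance was not tested.

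**Figure D3:**
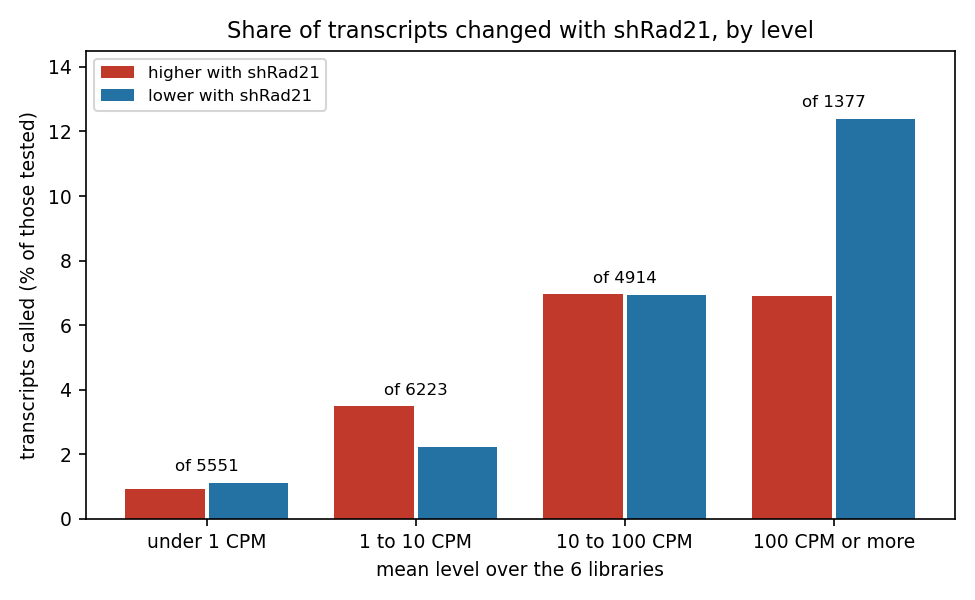
Share of tested transcripts called higher or lower with shRad21, in percent, in 4 classes of mean level over the 6 libraries; the number tested stands over each pair of bars. The called share grows from the lowest class to the highest, and at 100 CPM or more 12.4% were lower and 6.9% higher.

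Libraries numbered 3 stood apart from numbers 1 and 2. On the first principal component of the 11 HPC libraries, which carries 21.4% of the variance, shRad21 1, 2 and 3 lay at -7.85, -2.45 and 32.9, and Luc 1, 2 and 3 at -31.2, -32.8 and -8.29. The labels name no cause for this. Assigned counts were 22288469 to 33274970 in shRad21 libraries and 22395582 to 31281941 in Luc libraries. Reads outside annotated features made up 18%, 17.4% and 16.3% of all entries of the count table in shRad21 1, 2 and 3 and 16.2%, 16.4% and 15.1% in Luc 1, 2 and 3. The most counted identifier took 27.1%, 28.6% and 33.4% of the assigned counts in shRad21 1, 2 and 3, against 31.3%, 30.5% and 33.6% in Luc 1, 2 and 3. Its log2 fold change was -0.17 (SE 0.12, edgeR adjusted p = 0.468) over all libraries and -0.242 (edgeR adjusted p = 1.59e-06) in libraries 1 and 2. The part of these library differences in the calls was not tested. The shRad21 effect itself differed between number 3 and numbers 1 and 2 at 286 transcripts, 1.58% of those tested.

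Within libraries 1 and 2 alone, 1894 of 16144 transcripts changed, which is 11.7%, with 949 higher (5.88%) and 945 lower (5.85%). Of the 706 transcripts that rose in the fit of all libraries, 596 were also called higher here, and of the 713 that fell, 551 were also called lower. None of those tested in libraries 1 and 2 had the opposite sign, while 7 of those that rose and 18 of those that fell were not tested there. Libraries 1 and 2 are also part of the fit of all libraries, so this agreement is no separate result.

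Number 3, which had no part in those calls, moved the same way at most of these transcripts. Of the 949 transcripts called higher in libraries 1 and 2, 809 (85.2%) were higher in shRad21 3 than in Luc 3, where 50.2% of all 16144 transcripts were. The median log2 difference in number 3 was 0.338, against 0.45 in the libraries that made the calls. Of the 945 called lower, 850 (89.9%) were lower in shRad21 3 than in Luc 3, where 49.8% of all were. Their median log2 difference in number 3 was -0.239, against -0.329 in libraries 1 and 2. Number 3 has 1 library in each group, so these shares carry no test.

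**Figure D4:**
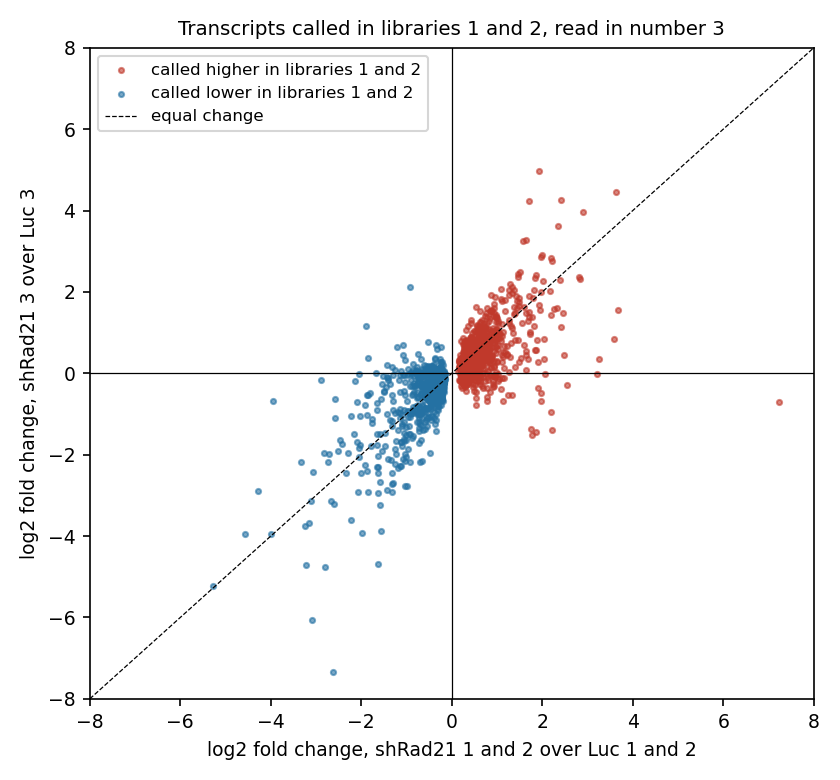
Log2 fold change of shRad21 3 over Luc 3 against that of shRad21 1 and 2 over Luc 1 and 2, for the transcripts called in libraries 1 and 2; the dashed line marks equal change. Of the points called higher, 85.2% lie above 0 in number 3, and of those called lower, 89.9% lie below 0.

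Most of these transcripts lay in the same direction with the other cohesin hairpins. To keep the controls apart, calls from libraries 1 and 2 were read in shSmc1a libraries against Luc 3 and in shStag2 3 against Luc 3. Of the 949 transcripts that rose with shRad21, 75.9% were higher with shSmc1a and 77.6% with shStag2 3, where 50.8% and 49.4% of all tested were. Of the 945 that fell, 79.3% were lower with shSmc1a and 75.9% with shStag2 3, where 49.2% and 50.6% of all were. Of the 949, 25.9% were called higher with shSmc1a and of the 945, 25.1% called lower; of all 18065 transcripts 3.16% were called higher and 3.3% lower in that comparison. Both readings use Luc 3, so they are not independent of each other. In direct tests, 40 of 18065 transcripts (0.221%) differed between shRad21 and shStag2 cells, 13 higher and 27 lower with shRad21. Within libraries 1 and 2 that number was 460. Between shRad21 and shSmc1a cells 497 (2.75%) differed, 218 higher and 279 lower with shRad21. Both shSmc1a libraries lay near shRad21 3 and shStag2 3 on the first component, at 24.6 and 24.5. With shRad21 3 alone against shSmc1a, 605 transcripts differed, 262 higher and 343 lower with shRad21 3.

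Transcripts that fell with Rad21 knockdown were raised in EPO-treated cells more often than transcripts in general. EPO changes, Ery over HPC cells, were read in 2 comparisons that share no library with the calls of libraries 1 and 2. Less stem cell factor and the unexplained title word go with EPO in both, and cannot be told apart from it. In the first comparison Luc 3 is also a library of the set that stands apart, and the part of that set was not tested there. In the second the baseline is itself a cohesin knockdown. Of the transcripts that fell with shRad21, 75.9% were also lower in shStag2 3 than in Luc 3. EPO changes there thus often start from a lowered level, and the part of this was not tested. Reads outside annotated features were 9.19% to 9.5% of all entries in the Ery libraries. They were 15.1% in Luc 3 and 15.1% to 17.9% in HPC shStag2 libraries. In shRad21 1 and 2 they were 18% and 17.4%, against 16.2% and 16.4% in Luc 1 and 2. The part of these library differences in the EPO reading was not tested. In Ery Luc cells against Luc 3, 449 of the 945 transcripts that had fallen were raised by EPO (47.5%) and 138 lowered (14.6%), while of all 16144 transcripts 19.8% were raised and 16.6% lowered (18.5% and 15.3% over all 18065). In Ery shStag2 cells against HPC shStag2 cells, 513 of the 945 were raised (54.3%) and 78 lowered (8.25%), against 20.9% raised and 21.1% lowered of all; over all 18065 transcripts 19.9% were raised and 19.9% lowered there. The median log2 change with EPO of the transcripts that fell was 0.211 in Luc cells and 0.298 in shStag2 cells, so most of these changes were modest. This comparison was chosen after the data had been seen.

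Over all levels together, transcripts that rose with Rad21 knockdown leaned the other way, but less. Of these 949, 191 (20.1%) were raised and 279 (29.4%) lowered in Ery Luc cells against Luc 3. In shStag2 cells 179 (18.9%) were raised and 280 (29.5%) lowered. Their median log2 change with EPO was -0.068 and -0.0806 in these comparisons.

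The share of transcripts called with EPO also differed with level, so the shares were read within classes of level. At 100 CPM or more, 61.3% of the 253 transcripts that had fallen were raised in Ery Luc cells, against 46.9% of all 1377. At 10 to 100 CPM it was 49.6% of 482, against 36.9% of all 4914. At 1 to 10 CPM it was 28.3% of 159, against 9.93% of all 6223, and under 1 CPM 19.6% of 51, against 3.5% of all 3630. In Ery Luc cells a somewhat smaller share of them than of all was lowered at 1 CPM or more, and a larger share under 1 CPM. In shStag2 cells the raised shares of the transcripts that had fallen were 65.6%, 56%, 40.3% and 25.5% in the same order of classes. Of all, 45.8%, 36.9%, 12.1% and 5.04% were raised there. Lowered in shStag2 cells were 6.72%, 7.05%, 11.9% and 15.7% of those that had fallen, against 12.3%, 15.9%, 27.9% and 19.9% of all.

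The list that rose was less even over the classes. At 10 CPM or more in Ery Luc cells, its shares departed further from all tested than those of the list that fell. In Ery Luc cells 26.7% of it was raised and 36.4% lowered at 100 CPM or more, against 46.9% and 16.8% of all. At 10 to 100 CPM 23.8% was raised and 31.3% lowered, against 36.9% and 16.3% of all. At 1 to 10 CPM 11.2% was raised and 26.9% lowered, against 9.93% and 20.5% of all. Under 1 CPM it went the other way, with 8.93% of 56 transcripts raised and 3.57% lowered, against 3.5% and 9.92% of all. In shStag2 cells, under 1 CPM, 14.3% was raised and 16.1% lowered, against 5.04% and 19.9% of all.

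**Figure D5:**
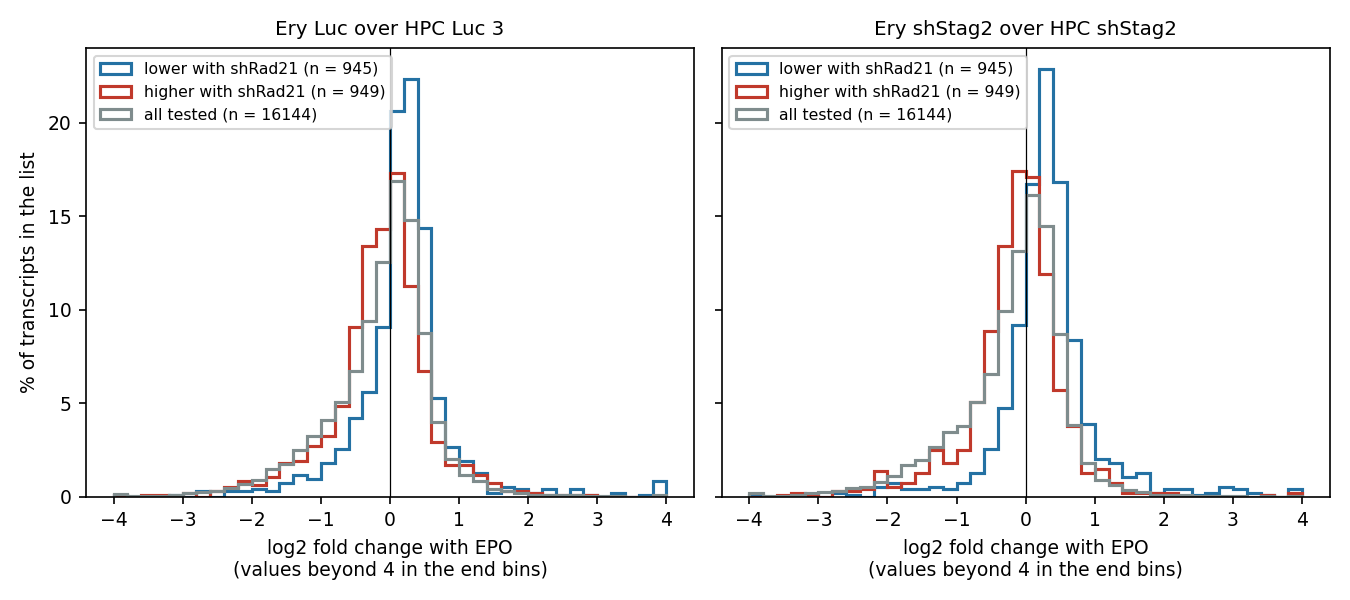
Distribution of the log2 fold change with EPO, in percent of each list, for transcripts called lower or higher with shRad21 in libraries 1 and 2 and for all tested; left, Ery Luc over Luc 3, right, Ery shStag2 over HPC shStag2. The list that fell lies to the right of all tested, with medians of 0.211 and 0.298; the list that rose has medians of -0.068 and -0.0806.

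The same counts can be read from the side of EPO. Of 3204 transcripts raised in Ery Luc cells over Luc 3, 449 (14%) fell and 191 (5.96%) rose with shRad21 in libraries 1 and 2. Of 406 raised at least 2-fold, 14.8% fell and 9.36% rose, and of 75 raised at least 4-fold, 29.3% fell and 6.67% rose. Over all transcripts tested, 5.85% fell and 5.88% rose. Of 2672 transcripts lowered by EPO, 138 (5.16%) fell and 279 (10.4%) rose with shRad21. Of 1351 lowered at least 2-fold, 3.03% fell and 5.85% rose, and of 340 lowered at least 4-fold, 2.94% fell and 5.59% rose. Among transcripts lowered strongly by EPO, the share that rose was thus no higher than over all transcripts, but it stayed above the share that fell. Their median log2 change with shRad21 was 0.0877 at the 2-fold limit and 0.142 at the 4-fold limit. These shares were not read within classes of level.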

How the data were processed

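Per the submitters' processing notes, STAR 2.4.0, HTSeq and mm10 were used. The authors deposited raw read counts per transcript identifier, 1 table per library. No source used here gives the annotation release, strandedness or counting mode; counts of transcripts that overlap, or that have a near-identical copy, are uncertain. The 5 lines that name no transcript were left out; ambiguous reads were 24.2% to 25.9% of all entries in the 6 libraries and reads outside features 15.1% to 18%.

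Of 55943 identifiers, 18065 passed filterByExpr. Counts were scaled by TMM and fitted with edgeR 4.0.16 (R 4.3.3) by quasi-likelihood, taking the 15 libraries together and 1 mean for each group; p-values have Benjamini-Hochberg adjustment. Libraries 1 and 2 were also fitted alone, with 16144 identifiers. The threshold was an adjusted p of 0.05. Comparisons of number 3, and those with Luc 3, came from a fit of all 15 libraries with HPC groups split by number; there a lone library is assumed to vary like the others. CPM use TMM-scaled totals. Replicates differed by more than sampling noise (chi-square per degree of freedom 4.51 to 26.5), so none were merged. The model was tested on simulated data, in which no library set stood apart, so that test does not cover the difference of number 3.

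Named transcripts had to pass in both fits, keep their sign in number 3 and reach a mean of 1 CPM in a group; the 2 largest rises and the 2 largest falls are named. Because 0 identifiers could be paired with symbols, the planned gene lists were not counted. Members, lists and comparisons were chosen with earlier results of these data known. The series' other samples and files were not used here. Alternatives tried were other sets of libraries, a library-set term, a replicate block, RLE scaling, leaving out the most counted transcript, DESeq2 1.42.0, no filter and leaving out each library.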

Additional observations from a re-analysis of the deposited data

Results flagged for a closer look

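The shRad21 effect differed between number 3 and numbers 1 and 2 at 286 of 18065 transcripts (1.58%), by an interaction contrast in edgeR's quasi-likelihood model with an adjusted p under 0.05. The log2 fold change was higher in number 3 at 116 and lower at 170. At 135 of the 286 the sign was opposite, and at 140 it was the same with the larger change in number 3. Of the 286, 97 were among the 1419 transcripts changed over all libraries. None of the 4 named transcripts is among them, with interaction adjusted p-values of 0.85 to 0.997, but they were chosen to pass in libraries 1 and 2 and keep their sign in number 3. Number 3 has 1 library in each group, so this contrast assumes that it varies like the others.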

How the results depend on the processing

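No replicate block was used in the fit reported. Libraries with the same number deviated together with correlations of 0.0431, 0.107 and 0.187, and numbers 2 and 3, but not 1, correlated best with their own, so the numbers were not taken as pairs. The 6 libraries alone gave 1509 changed transcripts with the replicate block and 631 without it, 362 higher and 269 lower. The library set as a term gave 2727, 1228 higher and 1499 lower. Libraries 1 and 2 in the fit split by number gave 2271, 1248 of them lower. The 11 HPC libraries alone gave 461 lower. Leaving out 1 library gave 861 to 1618 changed, 439 to 767 higher, 383 to 851 lower and 217 to 297 of at least 2-fold; the lowest totals were 861 without shRad21 2 and 868 without Luc 1. RLE scaling, TMM without the most counted transcript, DESeq2 and no filter gave 1448, 1413, 1569 and 1784. RLE scaling moved the median log2 fold change of all transcripts by -0.0115, the largest shift of these scalings. Among transcripts changed in the fit reported, the sign was opposite at 1 without Luc 1 and at 0 in every other setting. The 4 named transcripts kept their sign and passed in each of the 15 or 16 settings that gave them an adjusted p, the largest being 0.0267 for ENSMUST00000065587.4. The named transcripts were chosen for passing in these same libraries, so that agreement is no separate result. The causes of the differences in number between settings were not tested. The median standard error of the log2 fold change was 0.438 under 1 CPM and 0.06 at 100 CPM or more.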

Other observations

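The reading of EPO changes was repeated with the libraries exchanged. Transcripts called from shRad21 3 against Luc 3 (1 library each, with the spread taken from the other groups) were read in Ery Luc cells against Luc 1 and 2. Of 779 that fell, 369 (47.4%) were raised by EPO and 190 (24.4%) lowered. Of 678 that rose, 199 (29.4%) were raised and 246 (36.3%) lowered. Over all 18065 transcripts 23.5% were raised and 21.7% lowered. Both lists thus had larger shares than all transcripts in both directions. In the first reading the list that fell was lowered less often than all tested, and this did not recur here. The exchanged reading was not made within classes of level.

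The strongest changes in libraries 1 and 2 are few. Of 39 transcripts that fell at least 4-fold, 17 were raised and 4 lowered by EPO in shStag2 cells, and 13 were raised and 6 lowered in Luc cells against Luc 3. Of 28 that rose at least 4-fold, 4 were raised and 6 lowered in shStag2 cells, and 4 were raised and 1 lowered in Luc cells. In percent, the list that rose had 14.3% raised and 21.4% lowered in shStag2 cells, against 20.9% and 21.1% of all tested. In Luc cells it had 14.3% raised and 3.57% lowered, against 19.8% and 16.6% of all tested, so the lean of the full list towards lowering was not seen there. The list that fell had 43.6% raised and 10.3% lowered in shStag2 cells and 33.3% raised and 15.4% lowered in Luc cells.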
